A study of Homo sapiens with 6 samples.

Results

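The genes described are 10 that drive a cell from G1 into S phase: the D-type cyclins CCND1, CCND2 and CCND3, the E-type cyclins CCNE1 and CCNE2, the cyclin-dependent kinases CDK2, CDK4 and CDK6, the retinoblastoma gene RB1 and the transcription factor E2F1. They were taken by name, and all 10 had a row among the 42902 Gene IDs of the count table. The samples were PANC-1, a line of human pancreatic cancer cells that grows in culture. The shRRM2 group (3 libraries) carried a short hairpin RNA against RRM2, which encodes the small subunit of ribonucleotide reductase, and the shNC group (3 libraries) carried a non-targeting hairpin in cells labelled WT. The study looked for genes that act downstream of RRM2, and neither the number of hairpins or clones nor the origin of the 3 libraries of a group in separate cultures is given, so the p-values rest on library-to-library spread alone, and that spread may be technical.

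D-type cyclins are made in response to growth signals and bind CDK4 or CDK6, and the kinases then phosphorylate the RB1 protein, which otherwise holds E2F factors inactive. Released E2F1 and its relatives switch on the genes of DNA synthesis, among them CCNE1, CCNE2 and RRM2 itself, and cyclin E with CDK2 phosphorylates RB1 further. In pancreatic ductal carcinoma this step is a common target of mutation, mostly through loss of the inhibitor CDKN2A, and CDK4 and CDK6 are the targets of drugs such as palbociclib.

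Total counts per library ran from 16606947 to 23300433, and intervals and floors given here cover counting error and the spread of the libraries only. RRM2 was at 40.5, 40.6 and 39.5 CPM (counts scaled to a common library size, with TMM factors) in the shRRM2 libraries, against 203.6, 192.1 and 202.7 CPM in the shNC libraries, which left 20.2% of the control level. The 7 ductal epithelial markers summed to 4190 to 4240 CPM in shRRM2 and 2930 to 3100 CPM in shNC, and of the 6 measured, 5 rose and 1 fell. The epithelial keratins KRT8, KRT18 and KRT7 were abundant, while KRT19 and EPCAM, which mark ductal epithelium, had only 22 and 53 counts over all 6 libraries. Named after its values were seen, CDKN2A, generally described as deleted in PANC-1, stood at 277.6 ± 10.96 CPM in shRRM2 and 283.4 ± 10.67 CPM in shNC (SD, n = 3 each). Markers of other cell types moved with the groups: the 8 fibroblast markers summed to 61.8 to 66.4 CPM in shRRM2 and 27.9 to 30.0 CPM in shNC, and 3 of them were measured and all 3 rose. PDGFRB was 3.15-fold, COL1A1 1.66-fold and FAP 6.86-fold higher, while DCN, LUM and COL1A2 had 8, 13 and 7 counts over all 6 libraries. FAP had only 8, 5 and 1 counts in the shNC libraries, so its fold is uncertain. The 5 endothelial markers summed to 4.91 to 5.59 CPM in shRRM2 and 1.54 to 1.65 CPM in shNC. VWF was 5.47-fold and CDH5 2.71-fold higher, and KDR was at 0 counts in every library. In the shNC libraries VWF had only 3, 11 and 7 counts and CDH5 21, 22 and 13. The 5 immune markers summed to 84.0 to 87.2 CPM in shRRM2 and 28.2 to 29.4 CPM in shNC, nearly all of it CD68, with CD3E at 0 counts in every library. The part of these markers in the results below was not tested.

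Among the 10 genes CCND1 changed most. CCND1 and CDK4 were lower in shRRM2, CCND3, CCNE2 and CDK2 were higher, and CCNE1, CDK6, RB1 and E2F1 did not pass the test. Of the 10 genes, 9 passed the filter on low counts, 3 rose and 2 fell at an adjusted p under 0.05 in edgeR's quasi-likelihood test over 15866 genes. In the same test 52.1% of all tested genes passed, 26.0% higher and 26.1% lower, so the share among the 9 is close to the background. For 5 of the 9 every library of one group lay beyond every library of the other, as for 57.8% of all tested genes. The median log2 fold change of the 9 was -0.00357, against -0.00858 over all tested genes, and their median size was 0.12, against 0.26. The RNA was from cells in bulk, so fewer cells in a phase of the cycle and less RNA per cell cannot be told apart.

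**Figure D1:**
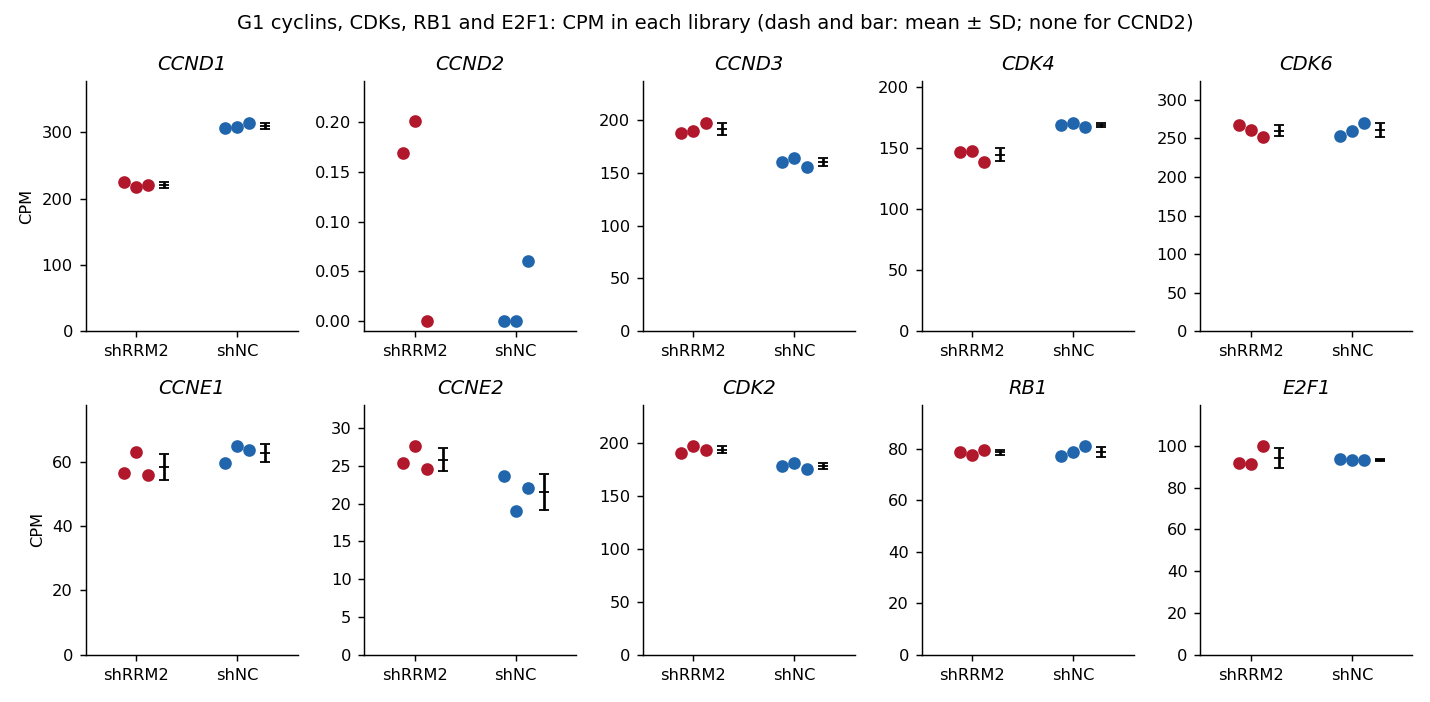
CPM on TMM-scaled library sizes for the 10 genes in each of the 3 shRRM2 libraries (red) and 3 shNC libraries (blue), with the mean ± SD in black except for CCND2, where counts were too few. The vertical axis starts at or just under 0 in every panel, and the groups stand fully apart for CCND1, CCND3, CDK4, CCNE2 and CDK2.

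CCND1 (Gene ID 595, chromosome 11, 69641156 to 69654474, GRCh38) encodes cyclin D1, the D-type cyclin most often amplified in carcinomas. It had 3990, 4314 and 3992 counts in the shRRM2 libraries, against 5368, 7120 and 5184 counts in the shNC libraries. On the CPM scale the shRRM2 libraries stood at 225.4, 216.9 and 220.2, against 306.3, 308.4 and 314.5 in shNC. Every shRRM2 library lay well under every shNC library, and the gap was many times the spread inside either group. CCND1 fell by 0.49 on the log2 scale (SE 0.0327, edgeR adjusted p = 2.08e-14), which is 0.713 of the control level with a 95% interval of 0.681 to 0.747. Among all tested genes, 24.7% had a change of larger size. CCND1 was also the one gene of the 10 that passed edgeR's test against a minimum change of 1.2-fold (adjusted p = 1.17e-07). CCND1 shares 497 exon bases with LTO1 on the opposite strand, whose 242 to 267 counts per library in shRRM2 and 256 to 393 in shNC are few beside those of CCND1. LTO1 was lower as well, at a log2 fold change of -0.31 (edgeR adjusted p = 0.0145). The library kit is described as directional, but whether strand was used in counting is not given, so reads of such opposite-strand pairs may have been shared.

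CCND3 (Gene ID 896, chromosome 6, 41934933 to 42050035) encodes cyclin D3, the D-type cyclin best known from blood cells and muscle. Its CPM were 187.4, 189.6 and 197.5 in shRRM2, against 160.7, 164.0 and 155.8 in shNC. The groups did not overlap, and here the shRRM2 libraries were the higher ones. CCND3 rose by 0.26 on the log2 scale (SE 0.0367, edgeR adjusted p = 3.89e-07), a 1.19-fold change with an interval of 1.14 to 1.26. CCND2 (Gene ID 894, chromosome 12), which encodes cyclin D2, was hardly detected, with 3, 4 and 0 counts in shRRM2 and 0, 0 and 1 counts in shNC. It was below the filter. A count of 0 allows up to 3 counts, or 0.165 CPM in shRRM2 replicate 3 and 0.171 and 0.130 CPM in shNC replicates 1 and 2, so no difference was detectable at this depth.

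The balance of the D-type cyclins in a library does not depend on how libraries are scaled. The log2 ratio of CCND1 to CCND3 counts was 0.27, 0.19 and 0.16 in the shRRM2 libraries, against 0.93, 0.91 and 1.01 in the shNC libraries. The ratio was lower in every shRRM2 library, and the mean difference of -0.75 makes it 0.596 of that in shNC. The exact two-sided permutation test over libraries gave p = 0.1, the smallest that 3 against 3 allows. Of 5 such ratios computed, 4 reached it (0.125 after Benjamini-Hochberg adjustment over the 5). Per kb of exon, the 3 D-type cyclins together came to 98.7 ± 1.37 CPM in shRRM2 and 111.0 ± 0.660 CPM in shNC (SD, n = 3 each), or 0.890 of the shNC sum (exact p = 0.1). That value rests on the exon length used, and with the longest transcript of each gene in place of all its exons it was 0.946.

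CDK4 (Gene ID 1019, chromosome 12, 57747727 to 57752310) and CDK6 (Gene ID 1021, chromosome 7, 92604921 to 92836573) encode the kinases that the D-type cyclins activate. CDK4 was at 147.0, 147.8 and 138.6 CPM in shRRM2, against 169.1, 170.6 and 167.3 CPM in shNC. Each shRRM2 library was lower than each shNC library, replicate 3 most of all. CDK4 fell by 0.23 on the log2 scale (SE 0.0375, edgeR adjusted p = 4.90e-06), or 0.855 of the control level with an interval of 0.811 to 0.901. CDK6 was at 267.9, 260.6 and 252.4 CPM in shRRM2, against 252.6, 259.9 and 270.4 CPM in shNC. The CDK6 libraries of the groups were intermixed. Its log2 fold change was -0.00357 (SE 0.0346, edgeR adjusted p = 0.940), and the interval of 0.950-fold to 1.05-fold bounds any difference. The log2 ratio of CDK4 to CDK6 counts was -0.87, -0.82 and -0.87 in shRRM2 and -0.58, -0.61 and -0.69 in shNC, a difference of -0.22 (exact p = 0.1), again with no overlap between the groups. Per kb of exon, CDK4 and CDK6 together came to 91.8 ± 3.03 CPM in shRRM2 and 103.7 ± 0.683 CPM in shNC (exact p = 0.1). CDK4 shares 1078 exon bases with TSPAN31 on the opposite strand, and TSPAN31 was at a log2 fold change of 0.10 (edgeR adjusted p = 0.382).

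The promoter of CDK4 is shown because MYC, a factor known to activate CDK4 through E-boxes, was among the pathway genes and fell. The window covers 250 bases before to 50 after the start of transcription (RefSeq, GRCh38.p14, chr12:57752261-57752560, minus strand), written 5′ to 3′ with each E-box, CACGTG, in capitals:
CDK4: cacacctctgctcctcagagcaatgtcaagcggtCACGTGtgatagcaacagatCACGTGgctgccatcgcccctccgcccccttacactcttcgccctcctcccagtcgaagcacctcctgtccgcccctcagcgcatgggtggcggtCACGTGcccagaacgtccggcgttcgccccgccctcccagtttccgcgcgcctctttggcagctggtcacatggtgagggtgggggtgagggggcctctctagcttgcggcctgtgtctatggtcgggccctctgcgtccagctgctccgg
The 3 matches start at positions -216, -196 and -101 from the transcription start. CACGTG reads the same on both strands, and it occurred at least once in 7.26% of the 35116 promoter windows searched and at least 3 times in 0.0940%. The motif was chosen after the values were seen, and a match describes the letters only. Matches were listed for windows of 6 of the 10 genes, and among their 9 windows CACGTG was also found once in one of CDK6. No window of the other genes was searched, so absence of a match is not shown for them. The single RB1 window, at 48476200 to 48476499, lies inside the gene far from its start at 48303751, so the promoter at that start was not searched, and CCND3 and CDK6 have windows at starts inside the gene too. MYC stood at 267.8 ± 8.88 CPM in shRRM2 and 465.9 ± 8.39 CPM in shNC, a log2 fold change of -0.80 (edgeR adjusted p = 3.52e-20).

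CCNE1 (Gene ID 898, chromosome 19, 29811991 to 29824312) and CCNE2 (Gene ID 9134, chromosome 8, 94880224 to 94896693) encode the E-type cyclins, which partner CDK2 at the entry into S phase. CCNE1 was at 56.3, 63.1 and 55.8 CPM in shRRM2, against 59.6, 64.7 and 63.6 CPM in shNC. The groups overlapped, with shRRM2 replicate 2 among the shNC values. The log2 fold change of CCNE1 was -0.10 (SE 0.0566, edgeR adjusted p = 0.138), with an interval of 0.861-fold to 1.01-fold. CCNE1 moved with single libraries: without shRRM2 replicate 2 it was -0.16 and passed (edgeR adjusted p = 0.0288), and without shRRM2 replicate 3 it was -0.06 (adjusted p = 0.448). CCNE2 was at 25.3, 27.6 and 24.6 CPM in shRRM2, against 23.6, 19.0 and 22.0 CPM in shNC. The shRRM2 libraries were all higher, though the lowest of them was close to the highest shNC library. CCNE2 rose by 0.27 on the log2 scale (SE 0.0875, edgeR adjusted p = 0.00986), a 1.21-fold change with an interval of 1.07 to 1.36. That call rests on shNC replicate 2, which was the lowest library: without it the log2 fold change was 0.18 (adjusted p = 0.128).

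The ratio of CCNE1 to CCNE2 counts was 1.15, 1.195 and 1.18 on the log2 scale in shRRM2, against 1.34, 1.77 and 1.53 in shNC. The shRRM2 libraries were lower and tightly grouped, while the shNC libraries were spread out (difference -0.37, exact p = 0.1). Without shNC replicate 2 the difference was -0.26. Reads of CCNE2 may be shared with INTS8, which overlaps 1629 of its exon bases on the opposite strand and had 1229 to 1282 counts per library in shRRM2 and 1080 to 1456 in shNC, more than CCNE2 itself. INTS8 was at a log2 fold change of 0.05 (edgeR adjusted p = 0.472). Per kb of exon, the E-type cyclins together came to 35.6 ± 2.40 CPM in shRRM2 and 36.4 ± 0.755 CPM in shNC (exact p = 0.7).

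CDK2 (Gene ID 1017, chromosome 12, 55966830 to 55972789) encodes the kinase that cyclin E and later cyclin A activate. It was at 190.6, 196.6 and 193.7 CPM in shRRM2, against 177.9, 180.6 and 175.3 CPM in shNC. All shRRM2 libraries were higher by a small and even margin. CDK2 rose by 0.12 on the log2 scale (SE 0.0350, edgeR adjusted p = 0.00387), a 1.09-fold change with an interval of 1.04 to 1.14, and 74.7% of all tested genes had a change of larger size. Set against CDK4 in the same library, the log2 ratio of CDK2 to CDK4 counts was 0.38, 0.41 and 0.48 in shRRM2 and 0.07, 0.08 and 0.07 in shNC. This is a difference of 0.35 with no overlap (exact p = 0.1), or 1.27-fold.

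RB1 and E2F1, the brake and the transcription factor it holds, were at nearly the same level in both groups. RB1 (Gene ID 5925, chromosome 13, 48303751 to 48481890) was at 78.8, 77.5 and 79.6 CPM in shRRM2, against 77.1, 78.8 and 81.0 CPM in shNC. The shRRM2 values lay inside the range of the shNC values. The log2 fold change of RB1 was -0.00588 (SE 0.0470, edgeR adjusted p = 0.927), with an interval of 0.932-fold to 1.06-fold. E2F1 (Gene ID 1869, chromosome 20, 33675477 to 33686385) was at 91.9, 91.2 and 99.7 CPM in shRRM2, against 93.7, 93.1 and 93.2 CPM in shNC. In shRRM2 only replicate 3 was above the shNC libraries, and the other two were below. The log2 fold change of E2F1 was 0.01 (SE 0.0455, edgeR adjusted p = 0.811), with an interval of 0.947-fold to 1.08-fold. Differences inside these intervals were not detectable at this depth and number of libraries. The log2 ratio of E2F1 to RB1 counts was 0.26 ± 0.0565 in shRRM2 and 0.24 ± 0.0396 in shNC (SD, n = 3 each, exact p = 0.7).

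E2F1 is known to act on its own promoter, which is shown because it was the one of the 9 windows searched that held the E2F motif. The window is RefSeq's, GRCh38.p14, chr20:33686336-33686635, minus strand, 5′ to 3′, with motif matches in capitals:
E2F1: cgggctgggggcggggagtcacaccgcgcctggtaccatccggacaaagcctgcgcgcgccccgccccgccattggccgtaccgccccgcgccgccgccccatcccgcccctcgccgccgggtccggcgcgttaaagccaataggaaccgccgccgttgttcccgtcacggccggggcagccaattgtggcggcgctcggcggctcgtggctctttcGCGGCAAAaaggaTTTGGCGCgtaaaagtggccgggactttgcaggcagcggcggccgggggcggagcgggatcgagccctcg
The motif was searched as TTTCCCGC, TTTCGCGC, TTTGCCGC or TTTGGCGC on both strands. The 2 matches start at -33, where TTTGCCGC lies on the other strand and reads GCGGCAAA, and at -20, and they do not overlap. At least 1 match was found in 3.31% of the 35116 windows and at least 2 in 0.145%. As for the E-box, the motif was chosen after the values were seen. The windows of CCND3, CDK4, CDK6 and CCNE1 in the table held no match to these letters, nor did that inside RB1. No window of CCNE2, CCND1, CCND2 or CDK2 was searched, so whether their promoters hold the motif was not tested. E2F1 was thus the only gene with a match among those with a window searched, not among all the genes described.

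**Figure D2:**
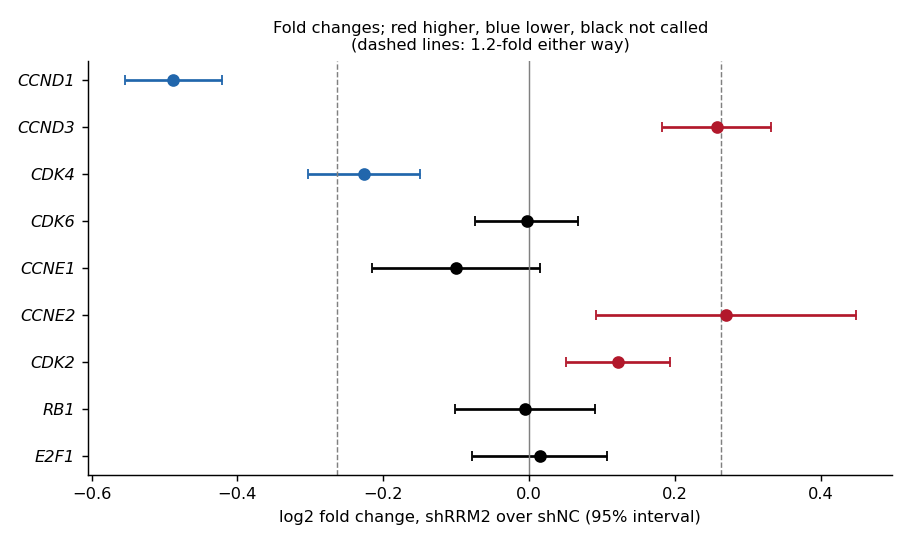
Log2 fold change of shRRM2 over shNC with its 95% interval for the 9 genes that passed the filter. CCND1 at -0.49 is the one whose interval lies wholly beyond 1.2-fold (dashed lines), and the intervals of CDK6, RB1 and E2F1 are centred near 0.

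**Figure D3:**
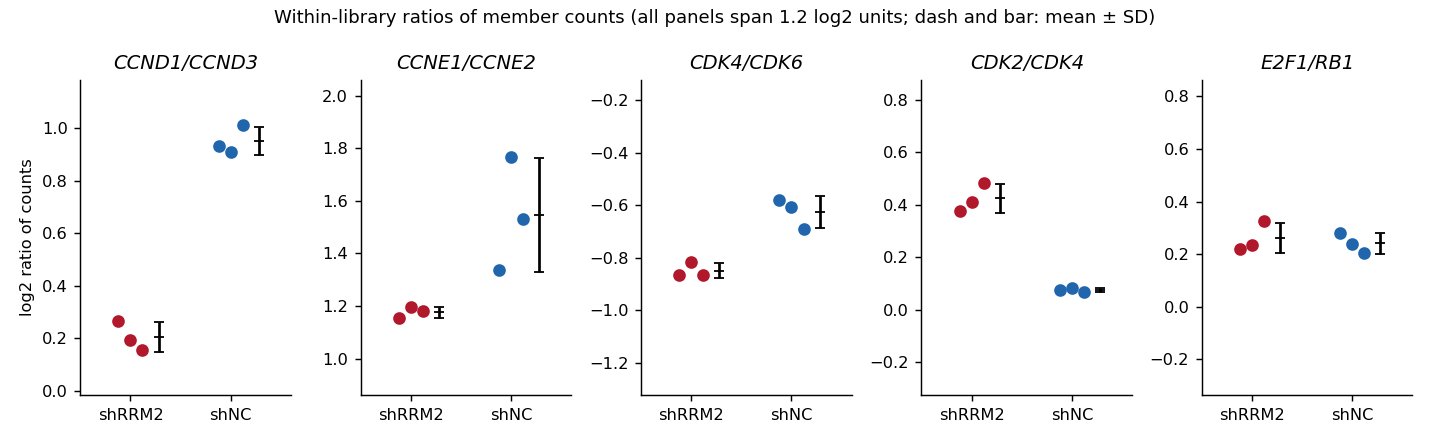
Log2 ratio of the counts of 2 genes in each shRRM2 library (red) and shNC library (blue), with mean ± SD in black and the same span on every vertical axis. The CCND1 to CCND3 ratio differs by -0.75 between the groups, and the E2F1 to RB1 ratio overlaps between them.

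Levels can be compared between genes only per length, so CPM were divided by the exon length in GENCODE 29. In shRRM2, CDK2 was highest at 79.4 ± 1.23 CPM per kb, then CDK4 at 69.6 ± 2.46, CCND1 at 50.1 ± 0.977, CCND3 at 48.6 ± 1.35, E2F1 at 37.7 ± 1.90, CCNE1 at 28.1 ± 1.95, CDK6 at 22.2 ± 0.658, RB1 at 15.7 ± 0.215 and CCNE2 at 7.52 ± 0.448 CPM per kb (SD, n = 3 each). In shNC, CDK4 was highest at 81.4 ± 0.804 CPM per kb, then CDK2 at 72.9 ± 1.08, CCND1 at 70.3 ± 0.959, CCND3 at 40.6 ± 1.04, E2F1 at 37.3 ± 0.138, CCNE1 at 30.2 ± 1.28, CDK6 at 22.3 ± 0.763, RB1 at 15.8 ± 0.389 and CCNE2 at 6.28 ± 0.688 CPM per kb. CDK2 and CDK4 thus stood in opposite order in the groups, and CCND1 and CCND3, well apart in shNC, overlapped in shRRM2. No other neighbours in either order overlapped, though CDK2 and CCND1 in shNC came close, with 71.85 CPM per kb in the lowest CDK2 library and 71.39 in the highest CCND1 library. CCND3 has the least certain place, since its exons cover 3942 bases but its longest transcript 2394. With the longest transcript, CCND3 stood at 80.0 CPM per kb in shRRM2, above CDK4 at 69.6 and CCND1 at 51.3 and second to CDK2 at 84.4. In shNC it stood at 66.9 CPM per kb, below CCND1 at 71.9.

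**Figure D4:**
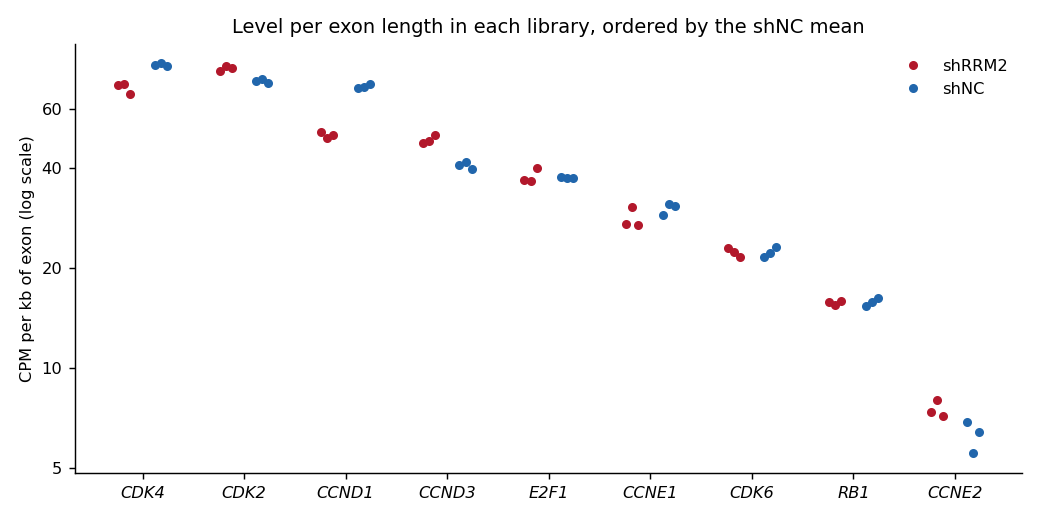
CPM per kb of exon (log axis) in each library of shRRM2 (red) and shNC (blue), for the 9 genes that passed the filter, ordered by the shNC mean. CCNE2 is lowest in both groups, and the red points of CCND1 drop to the level of CCND3.

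Around these genes, the lists of the pathway were counted in the same fit. Of 16 genes of the RB family, the E2F and DP factors and the MuvB complex, 4 rose (25.0%, against 26.0% of all tested genes) and 8 fell (26.1% of all tested genes did), with a median log2 fold change of -0.12, against -0.00858 over all tested genes. RBL1 (p107), a pocket protein related to RB1, fell by 0.60 on the log2 scale (SE 0.0730, edgeR adjusted p = 1.81e-08). E2F5, a partner of the pocket proteins, fell to 4.37 ± 1.12 CPM in shRRM2, against 9.99 ± 1.08 CPM in shNC (log2 fold change -1.201, edgeR adjusted p = 1.12e-07). The repressor E2F6 was lower at -0.42 and the dimer partner TFDP1 at -0.16. Named for their class after the values were seen, the pocket protein RBL2 (p130) was at 0.02 (edgeR adjusted p = 0.753), the other activating factors E2F2 and E2F3 were lower at -0.23 and -0.14, and the atypical repressors E2F7 and E2F8 rose by 0.25 and 0.46.

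The 36 E2F target genes of the G1 to S transition split. Of them, 9 rose (25.0%, against 26.0% of all tested genes) and 21 fell (58.3%, against 26.1%) in edgeR's test. Their median log2 fold change was -0.14. MYBL2, a transcription factor of the S and G2 phases, rose by 0.56 (SE 0.0299) and the thymidine kinase TK1 by 0.44 (SE 0.0353). UHRF1, which maintains DNA methylation, fell by 0.59 (SE 0.0372) and POLA1, which carries the activity of the polymerase that starts DNA strands, by 0.62 (SE 0.0487). Both directions thus held genes with clear changes, while the interval of E2F1 spanned no change. RBL1, E2F2, E2F3, E2F7, E2F8, CCNA2 and CDC25A each belong to 2 of the lists. Of the proliferation markers, MKI67 was lower at -0.27 and PCNA at -0.35, and TOP2A was higher at 0.11. Among the 5 genes of the S and M phase cyclins and CDK1, 0 rose and 3 fell, CCNF by 0.14, CCNB1 by 0.11 and CCNA2 by 0.11 on the log2 scale, and CCNB2 was at 0.13 (edgeR adjusted p = 0.0577). Without shRRM2 replicate 1, 1 of the 5 passed.

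The next list held 9 genes: the CDK-activating kinase, the CDC25 phosphatases, the CDK inhibitory kinases and CDC37. Of them 6 rose (66.7%, against 26.0% of all tested genes) and 1 fell (11.1%, against 26.1%), with a median of 0.15. The phosphatases CDC25B, CDC25C and CDC25A, which remove inhibitory phosphate from the kinases, rose by 0.28, 0.47 and 0.24. PKMYT1, which adds inhibitory phosphate to CDK1, rose by 0.33 (SE 0.0431, edgeR adjusted p = 5.68e-08). The list of ubiquitin ligase genes for G1 cyclins held 13, among them the kinase GSK3B and the cofactor CKS1B. Of the 13, 1 rose and 8 fell (61.5%, against 26.1% of all tested genes), CKS1B among the 8, with a median of -0.12. The scaffold CUL4A fell to 381.9 ± 4.44 CPM in shRRM2, against 534.7 ± 8.08 CPM in shNC (log2 fold change -0.49, edgeR adjusted p = 1.99e-15). The other scaffolds CUL1 and CUL3 were lower at -0.22 and -0.23 and the RING subunit RBX1 at -0.27.

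Of the 7 CDK inhibitors, 2 rose (28.6%, close to the 26.0% of all tested genes) and 0 fell (26.1% of all tested genes did). CDKN1A (p21) rose to 192.7 ± 3.20 CPM in shRRM2, against 146.1 ± 1.10 CPM in shNC, and CDKN2C (p18), which binds CDK4 and CDK6, to 85.7 ± 1.90 CPM in shRRM2, against 60.2 ± 1.78 CPM in shNC (log2 fold changes 0.40 and 0.51, edgeR adjusted p = 2.32e-11 and 1.25e-10). CDKN2B was at 0.13 (edgeR adjusted p = 0.0917) and CDKN1C at 0.11 (adjusted p = 0.158). Among 13 transcription factors described at the CCND1 promoter, 5 rose (38.5%) and 2 fell (15.4%). MYC, given above, fell, while STAT3, FOSL1 and JUN rose by 0.50, 0.59 and 0.78. Of 11 cyclins and CDKs of transcription, 2 rose (18.2%) and 5 fell (45.5%), with CCNL1 at -0.28, CCNC at -0.39 and CDK13 at -0.18 against CDK19 at 0.51. These counts and shares describe the lists, and whether any list differed from the other genes was not tested.

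**Figure D5:**
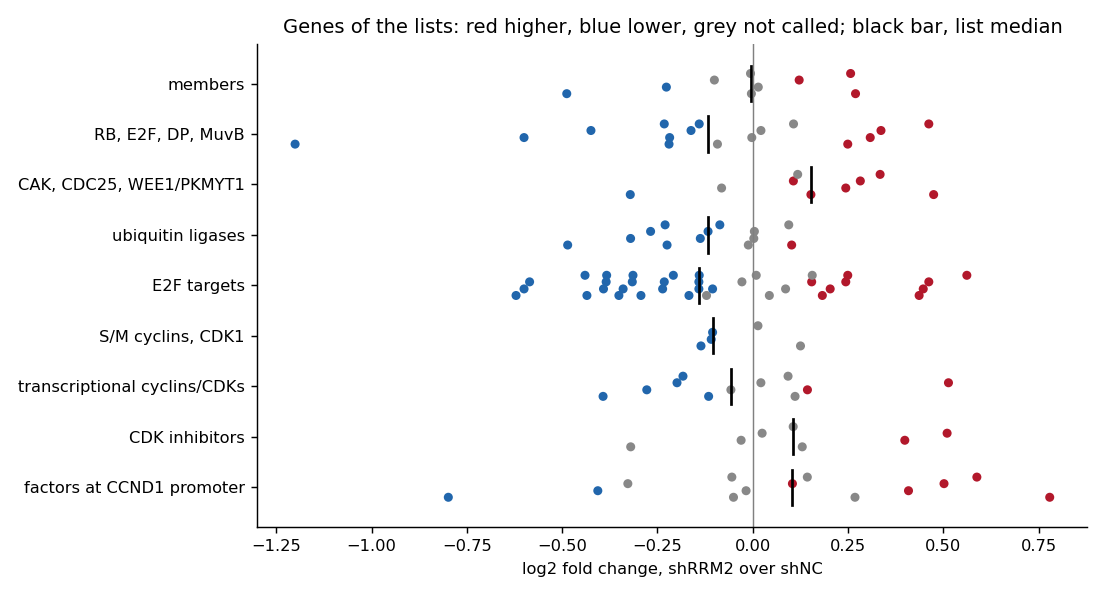
Log2 fold change of shRRM2 over shNC for each gene that passed the filter in the 10 genes described (top row) and 8 pathway lists, with genes that rose in red, that fell in blue and not called in grey, and the list median as a black bar. The 36 E2F targets reach from -0.62 to 0.56 and the 9 G1 genes from -0.49 to 0.27. A range from lowest to highest widens with the number of genes, so these ranges are not like for like.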

How the data were processed

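RNA sequencing of 6 PANC-1 libraries (3 shRRM2, 3 shNC) was analysed. Read counts were used as deposited, as whole numbers for each NCBI Gene ID. The submitters' processing notes name hg38, featureCounts and fastp 0.23.4. The aligner, the annotation and the strand setting were not given in the sources used here. Columns named si for the RRM2 libraries were matched to the sh labels by gene name and number. Of 42902 IDs, 40120 matched a RefSeq symbol (GRCh38.p14), and the others, with 1.25% of counts, stayed in the fit.

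Genes passing edgeR's filterByExpr (15866) were tested with edgeR 4.0.16 (R 4.3.3; TMM, robust quasi-likelihood fit, group alone, two-sided), with Benjamini-Hochberg adjustment over all of them and a threshold of 0.05. SEs were taken from each gene's log2 fold change and its F statistic. Ratios used an exact permutation test over libraries. On counts simulated with known changes the fit recovered most of the larger ones, and its share of false calls averaged somewhat above the nominal level. The simulation changed far fewer genes than passed in these data, so that share need not hold here. Alternatives included DESeq2 1.42.0 and limma-voom (limma 3.58.1). The 10 genes, the lists and the tests were chosen with earlier results of these data known, and no p-value was adjusted over a list alone. The genes named were the 10, RRM2, and from each pathway list up to 4 with the smallest adjusted p. Marker genes, genes that overlap a member, and those said to be named after their values were seen fall outside that rule. Pairs of libraries of 1 group differed by more than sampling noise (chi-square per degree of freedom 2.22 to 3.90).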

Additional observations from a re-analysis of the deposited data

How the results depend on the processing

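Under 15 alternatives, CCND1, CCND3, CDK2 and CDK4 kept their direction, and CCND1 passed in each (log2 fold change -0.50 to -0.45). CCND3 (0.24 to 0.29), CDK4 (-0.24 to -0.19) and CDK2 (0.11 to 0.16) passed in all but edgeR's test against a minimum change of 1.2-fold (adjusted p = 0.631, 0.952 and 1.00). CCNE2 failed there too (adjusted p = 0.518) and without shNC replicate 2, and CCNE1 (-0.16 to -0.06) passed only without shRRM2 replicate 2. CDK6 (-0.03 to 0.03), RB1 (-0.03 to 0.03) and E2F1 (-0.02 to 0.05) passed in none and changed sign among them. The 1.2-fold test left 2177 genes higher and 1544 lower, and 0 of the G1 genes higher and 1 lower. In the lists it left 4 of the RB and E2F genes, 1 of the kinase regulators, 1 of the ubiquitin ligase genes, 13 of the E2F targets, 0 of the S and M phase cyclins and CDK1 and 2 of the transcriptional cyclins and CDKs, against 2 CDK inhibitors called in both tests and 5 CCND1 promoter factors, where 7 had been called. These smaller counts follow from the stricter null. An adjusted p of 0.01 left 1 of the S and M phase list, whose count was 1 to 2 when each library was left out.

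Same-numbered libraries did not deviate together (correlation -0.0214 to -0.00848), so no pairing by number was seen in the values. Whether they were prepared in pairs is not given. With the replicate number as a block, 4102 genes were higher and 4142 lower, the G1 genes called were again 3 and 2, and the ratios kept their values. The exact sign-flip test over the 3 pairs gave p = 0.25 for CCND1 to CCND3, the smallest that 3 pairs allow. The ratios of CCNE1 to CCNE2, CDK4 to CDK6 and CDK2 to CDK4 had the same p. The ratios could not be formed with CCND2, at 0 to 4 counts. Without a filter CCND2 was tested and did not pass (adjusted p = 0.306). CCND2, with 0 to 4 counts, and CCNE2, with 363 to 548 counts per library, had the fewest reads of the 10 genes.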
